A study of Mus musculus with 4 samples.

Results

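The proteins of the cytosolic ribosome were examined in Ly6G+ myeloid-derived suppressive cells (MDSCs) of the bone marrow from lal-/- mice, which lack lysosomal acid lipase (LAL), and from lal+/+ mice. A gene was taken as a member when a probe set named that gene alone and its symbol began with Rpl or Rps and a digit, or was Rpsa, Rplp0, Rplp1, Rplp2 or Fau. Symbols of S6 kinases and of pseudogenes were left out. The rule found 64 genes of 19938 measured, read by 221 probe sets, and the probe set with the highest mean stood for each gene. The members were 33 proteins of the large subunit, 22 of the small subunit, 7 paralogs and 2 genes that meet the rule by symbol, Rps19bp1, which encodes a partner of Rps19, and the retrogene Rps23rg1. Of 90 protein-coding genes of RefSeq that meet the symbol rule, 63 were named alone by a probe set of the gene table used here. The other 27, which include Rpl3, Rpl11, Rpl13a, Rpl32 and Rps27a, are not among the members and have no value of their own here.

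RNA was hybridized to 4 Affymetrix Mouse Gene 1.0 ST arrays, 2 of lal-/- and 2 of lal+/+ cells, with no depth in reads, so the number of arrays limits the precision. All mice were 5 months old and had been back-crossed to FVB/N for 10 generations, and the lal-/- mice carry a germ line disruption that is not restricted to myeloid cells. CD11b and Gr-1 are the surface markers that the labels give for the cells. The labels do not say whether the arrays of a genotype came from separate mice, so the p-values reflect only how far these arrays lie apart, and that spread may be technical. Values are log2 levels made by RMA and quantile normalized between the arrays, and differences are given as lal-/- minus lal+/+. Genotypes were compared with limma, with the Benjamini-Hochberg adjustment made over 21789 probe sets that name 1 gene. A gene passed the test at an adjusted p under 0.05 and was called at that p with a fold of at least 2. Rose and fell are used of genes that passed.

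Lipa, the gene of LAL, read 7.37 and 7.49 in lal-/- cells, against 9.50 and 9.05 in lal+/+ cells, which is a decrease of 1.85 on the log2 scale (adjusted p = 4.17e-04, limma). Arrays of one genotype correlated at 0.987 (lal-/-) and 0.984 (lal+/+) across probe sets, and arrays of different genotypes at 0.922 to 0.932 (Pearson's r, across features that do not count as replicates). The 2 genotypes also differed in markers of the selected lineage and of other cells. Ly6g, the gene of the antigen used to select the cells, read 12.91 and 12.84 in lal-/- and 10.19 and 9.80 in lal+/+ cells (2.88, adjusted p = 8.00e-05, limma). Of 10 genes of secondary granules and myelocytes 8 were called higher. Of 7 genes of mature neutrophils 2 were called higher and 2 lower. Of 13 measured B cell markers 11 were called lower in lal-/- cells, with a mean level over the list of 6.27 to 6.35 on the lal-/- arrays and 9.13 to 9.29 on the lal+/+ arrays. Ms4a1, Ebf1, Cr2 and Fcer2a among them lay at the level of silent genes in lal-/- cells, which 1035 probe sets of olfactory receptors put at or under 6.29 in lal-/- and 6.79 in lal+/+ cells (95th percentile). Of 12 markers of monocytes and macrophages 8 were called lower and 1 higher (mean level 6.94 to 6.99 in lal-/- and 8.63 to 8.74 in lal+/+ cells). Of 7 genes of primary granules, made by neutrophil precursors, 6 were called higher (9.22 to 9.27 in lal-/- and 6.80 to 6.81 in lal+/+ cells), as were 8 of 9 genes of cell division (9.11 to 9.18 in lal-/- and 7.36 to 7.48 in lal+/+ cells). In such bulk samples fewer cells of a type and less RNA per cell cannot be told apart, and the part of these cells in the results below was not tested.

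The cytosolic ribosome joins a small subunit, which reads the mRNA, to a large subunit, which forms the peptide bond, and each holds one copy of most of its proteins. Mammalian mRNAs of these proteins begin with a run of pyrimidines, the 5′ terminal oligopyrimidine or TOP motif, through which mTOR and the RNA-binding protein Larp1 set their translation, so that mRNA level and protein output can part. Dividing blood precursors make many ribosomes, and neutrophils make few as they mature. Several of the proteins are known for roles in blood: loss of one copy of RPS19 in humans causes Diamond-Blackfan anemia, and RPS14 lies in the region deleted in the 5q- syndrome.

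The start sites of a few members are shown because the pyrimidine run there is the mark by which the mRNAs of this family are known. RefSeq promoter windows of the GRCm38.p6 build were found for 52 members, 44 of them core proteins of either subunit. Each window below runs from 40 bases before to the 30th base after the annotated start, 5′ to 3′ on the strand of the gene, and capitals mark the longest run of C and T where it has at least 8 bases. The first 3 genes fell in lal-/- cells, Rps6 and Rpl28 did not pass the test, and Fau and Rpl7l1 rose.
Rplp2: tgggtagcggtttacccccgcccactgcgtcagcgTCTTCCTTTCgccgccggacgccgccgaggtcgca
Rps15a: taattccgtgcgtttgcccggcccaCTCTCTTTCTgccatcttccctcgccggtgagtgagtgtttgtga
Rpl14: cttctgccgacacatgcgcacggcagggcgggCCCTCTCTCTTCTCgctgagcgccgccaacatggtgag
Rps6: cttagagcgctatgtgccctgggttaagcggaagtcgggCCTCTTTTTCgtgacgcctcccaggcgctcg
Rpl28: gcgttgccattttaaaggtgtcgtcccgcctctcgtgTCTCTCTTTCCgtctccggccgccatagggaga
Fau: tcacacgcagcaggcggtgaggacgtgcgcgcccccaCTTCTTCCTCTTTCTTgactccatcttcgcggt
Rpl7l1: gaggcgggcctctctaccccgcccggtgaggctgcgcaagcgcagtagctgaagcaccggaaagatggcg
The windows lie at chr7:141447611-141447680 (Rplp2, plus strand), chr7:118116118-118116187 (Rps15a, minus strand), chr9:120571477-120571546 (Rpl14, plus strand), chr4:86857338-86857407 (Rps6, minus strand), chr7:4792925-4792994 (Rpl28, plus strand), chr19:6057907-6057976 (Fau, plus strand) and chr17:46782627-46782696 (Rpl7l1, minus strand). The run has 10 bases in Rplp2 and Rps15a, 14 in Rpl14, 10 in Rps6, 11 in Rpl28 and 16 in Fau. In Rps15a it begins 15 bases before the annotated start and ends ahead of it. Such a run was found in 26 core genes and not in 18, so the core genes shown, which all have one, do not stand for all. In Rpl7l1, a paralog, the longest run has 7 bases.

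Most ribosomal protein genes read lower in lal-/- than in lal+/+ MDSCs, by small amounts. Of 64 members 51 had a log2 fold change below 0 and the median was -0.29 (quartiles -0.55 and -0.02), against a median of 0.08 over all genes. The test was passed by 24 members that fell and 2 that rose, while 38 did not pass. These are 37.5% and 3.12% of the members, beside 9.85% of all genes that fell and 19.8% that rose. With the fold of at least 2, 8 members were called lower (12.5%, beside 3.24% of all genes) and 1 higher (1.56%, beside 7.56%). Both lal-/- arrays lay under both lal+/+ arrays in 46 members (71.9%, beside 24.1% of all genes) and over them in 9 (14.1%, beside 41.6%). When the arrays were only shifted to a common median, without quantile normalization, the member median was -0.05 against 0.12 over all genes, 37 members lay below 0, 11 fell and 6 rose at the adjusted p, and 2 were called lower. The 11 were all among the 24 that fell, and of the other 13 only Rpl8 turned positive (0.07). Over all 19938 genes 1536 fell and 5333 rose with a common median. The 24 members that fell became 13 without lal-/- replicate 1 and 12 without lal-/- replicate 2.

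**Figure D1:**
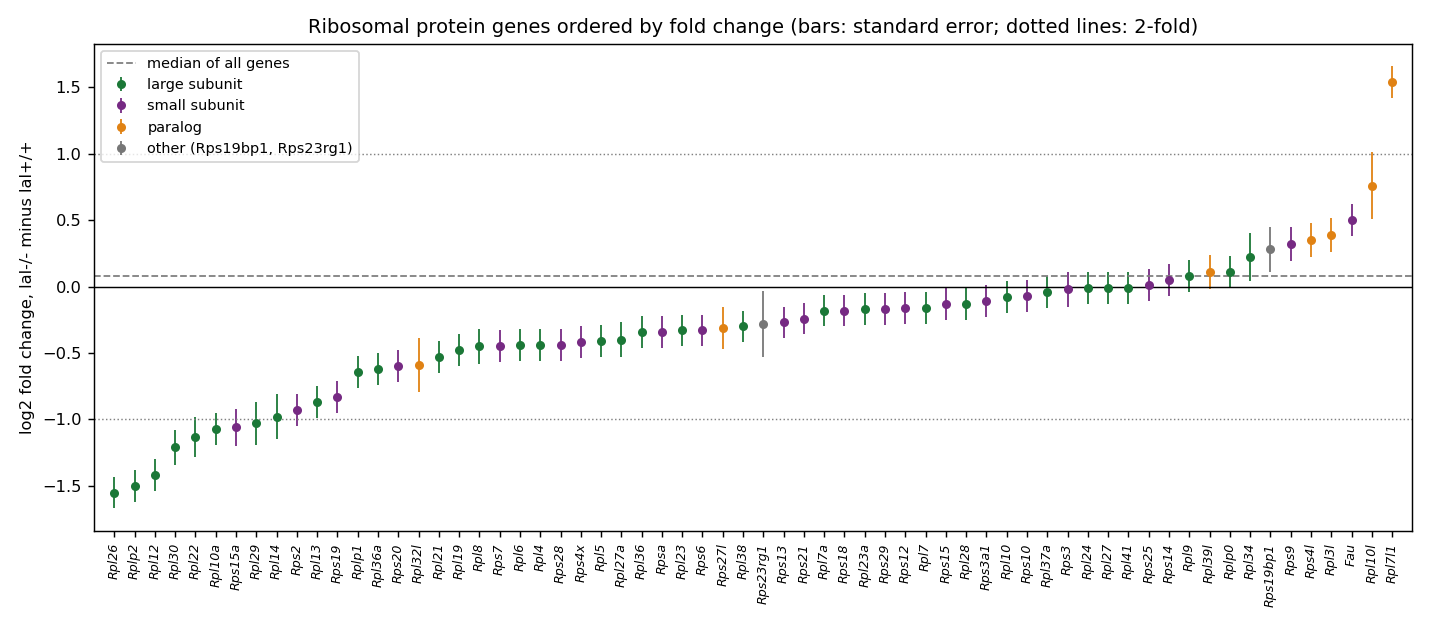
Log2 fold change, lal-/- minus lal+/+, of the 64 members in rising order, with the standard error of the limma fit (2 arrays of each genotype) and the subunit in colour. 51 points lie below 0, from Rpl26 at -1.55 upward, and Rpl7l1 stands at 1.54. On a common median 37 lie below 0.

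The distance between the ribosomal protein genes and all genes was present under each scaling tried, with a different size. The members' median minus that of all genes was -0.37 after quantile normalization, -0.17 with a common median, -0.17 in the values as deposited and -0.54 when the quantile map was built without the ribosomal protein probe sets. The median over the members was 12.10 and 12.12 in lal-/- cells, against 12.30 and 12.26 in lal+/+ cells. Replicate arrays differed by 0.0553 in lal-/- and 0.0552 in lal+/+ cells in the median member.

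Ribosomal protein genes read high on these arrays, and the median of all genes with such levels lay above 0. Of 398 genes with a mean level of at least 11, 46 were members, all of them core proteins of either subunit. Over the 398 genes the median log2 fold change was 0.30, with 174 that rose and 52 that fell. Over the 46 members among them the median was -0.25, with 1 that rose and 16 that fell. The 9 core members under this level had a median of -1.06, and 8 of them fell (-0.63, with 5 that fell and 1 that rose, with a common median), beside one of 0.12 over 11755 genes with a mean level of 6 to 11. Across the 55 core members, which are not independent replicates and share arrays and normalization, Pearson's r between mean level and log2 fold change was 0.63. Core members with lower levels had the larger decreases. With a common median the 398 genes had a median of 0.64, with 248 that rose and 21 that fell, and the 46 members among them one of -0.04, with 2 that rose and 6 that fell.

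**Figure D2:**
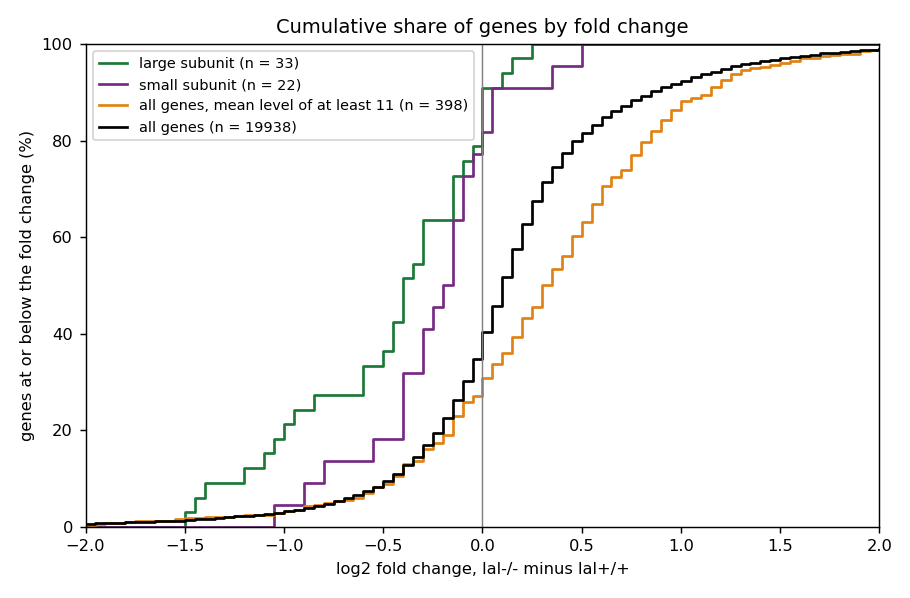
Share of genes, in percent, at or below each log2 fold change (lal-/- minus lal+/+) for the 33 large subunit genes, the 22 small subunit genes, the 398 genes with a mean level of at least 11 and all 19938 genes. At a log2 fold change of 0 the share is 90.9% for the large and 81.8% for the small subunit, against 30.9% for the genes of high level and 40.3% for all genes.

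In the large subunit 17 of 33 genes fell (51.5%, beside 9.85% of all genes). The median log2 fold change was -0.41 (-0.15 with a common median). Rpl26, a protein beside the exit of the peptide tunnel that is also known to bind the p53 mRNA in human cells, had the lowest value. It read 10.53 and 10.55 in lal-/- cells, against 12.12 and 12.04 in lal+/+ cells, and thus differed by -1.55 (standard error 0.12, adjusted p = 2.10e-04, limma). The arrays of a genotype lay within 0.1 of each other and the genotypes did not overlap. Rpl26 was called lower under every scaling tried, at -1.13 with a common median and -1.31 in the values as deposited. Other probe sets name Rpl26 together with further genes, and no such set of any ribosomal protein lay below -1.14.

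The stalk of the large subunit, which recruits the translation factors, was uneven. Rplp2 read 8.54 and 8.44 in lal-/- cells, against 9.94 and 10.04 in lal+/+ cells (log2 fold change -1.50, adjusted p = 2.66e-04, limma). Its partner Rplp1 read 10.88 and 10.76 in lal-/- and 11.47 and 11.46 in lal+/+ cells (-0.64, adjusted p = 0.00788). Rplp0, the protein on which both are mounted, read 12.74 and 12.65 in lal-/- and 12.60 and 12.57 in lal+/+ cells (0.11, adjusted p = 0.539). Rplp1 and Rplp2 fell, and Rplp0 did not pass the test. Rplp1 had -0.15 with a common median (adjusted p = 0.488) and -0.33 in the values as deposited (adjusted p = 0.101), neither of which passed. Rpl12, which lies at the base of the stalk, read 5.34 and 5.44 in lal-/- cells, against 6.85 and 6.77 in lal+/+ cells (-1.42, adjusted p = 3.13e-04). The lal-/- level of Rpl12 lay within the range of silent genes, and 1 of its lal+/+ arrays lay just over and 1 just under the upper end of that range (6.79), so neither its levels nor the size of its difference is resolved. With a common median Rplp2 had a log2 fold change of -0.90 and was not called, and Rpl12 one of -1.41.

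The other large subunit genes called lower were Rpl30, Rpl22, Rpl10a and Rpl29. Rpl30, which also binds the recoding element of selenoprotein mRNAs, read 7.40 and 7.48 in lal-/- and 8.76 and 8.55 in lal+/+ cells (log2 fold change -1.21, adjusted p = 7.65e-04, limma). Rpl22, which is not needed for general translation but for the development of lymphocytes in mice, read 7.89 and 7.86 in lal-/- and 9.16 and 8.85 in lal+/+ cells (-1.13, adjusted p = 0.00152). Rpl10a, known for its presence in only part of the ribosomes of mouse embryonic stem cells, read 11.01 and 10.91 in lal-/- and 12.05 and 12.00 in lal+/+ cells (-1.07, adjusted p = 9.29e-04). In each of these the genotypes did not overlap. Rpl29, also known as a heparin-binding protein, read 9.28 and 9.21 in lal-/- and 10.08 and 10.46 in lal+/+ cells (-1.03, adjusted p = 0.0031). None of the 4 reached 2-fold with a common median (-0.81, -0.64, -0.66 and -0.39, in the order named), Rpl22 read -0.97 without lal+/+ replicate 1, and Rpl29 read -0.84 without lal+/+ replicate 2 and -0.99 without lal-/- replicate 2.

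**Figure D3:**
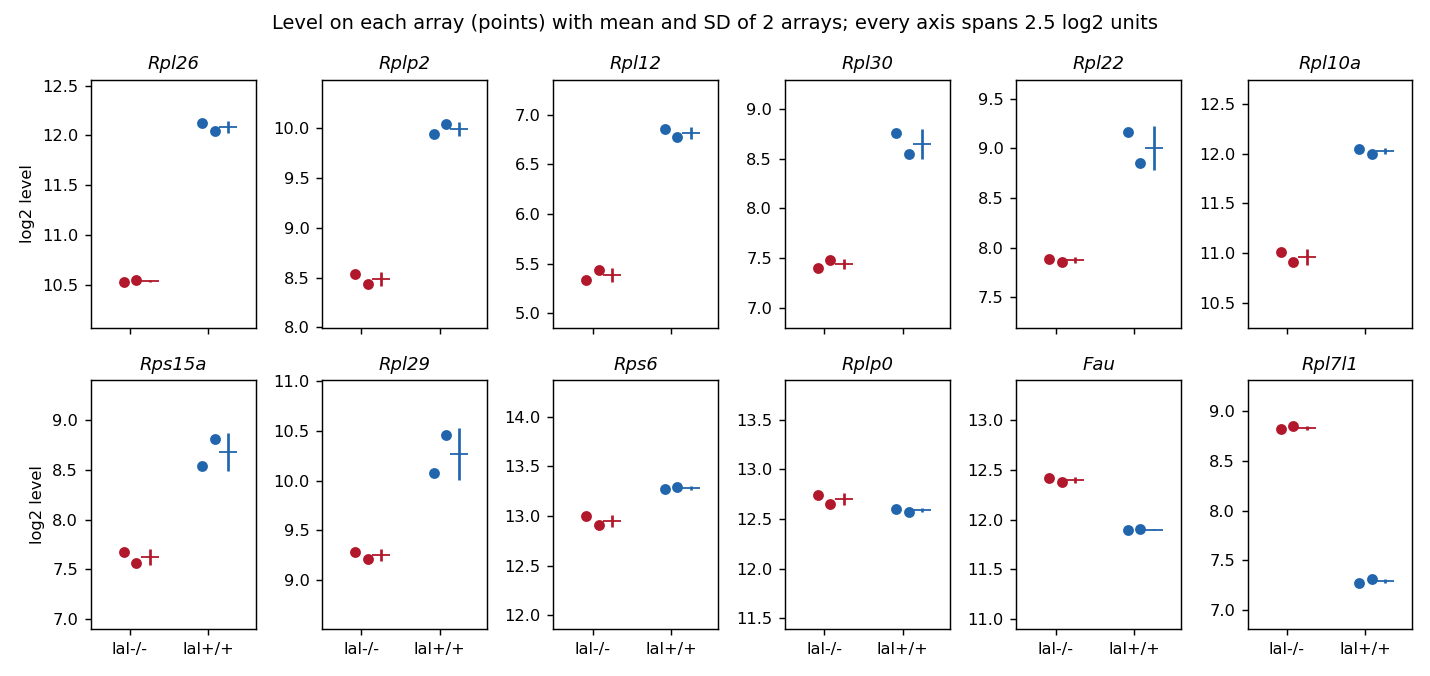
Log2 level on each array (points) with the mean and SD of the 2 arrays, lal-/- in red and lal+/+ in blue, for the 9 called genes and for Rps6, Rplp0 and Fau. The genotypes do not overlap in any panel, and the gap spans 1.55 log2 units in Rpl26 and 0.11 in Rplp0, both as differences of means.

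Rpl14 (-0.98, adjusted p = 0.00491) and Rpl13 (-0.87, adjusted p = 0.0019) fell by just under 2-fold. Rpl14 had -0.34 with a common median and did not pass (adjusted p = 0.23), as in the values as deposited (-0.52, adjusted p = 0.0662), while Rpl13 still fell, at -0.61 (adjusted p = 0.00743). Rpl36a fell by 0.62 on the log2 scale, Rpl21 by 0.53 and Rpl19 by 0.48. Rpl8, Rpl6, Rpl4 and Rpl5 fell by 0.41 to 0.45. Of these 7 genes only Rpl36a passed with a common median. Rpl5, which with Rpl11 and the 5S rRNA holds Mdm2 when ribosome assembly fails, read 12.16 and 12.17 in lal-/- and 12.57 and 12.58 in lal+/+ cells (-0.41, adjusted p = 0.0407). Of the 16 large subunit genes that did not pass, 13 lay below 0. Rpl38, which in mice is required for the translation of Hox mRNAs, read 12.44 and 12.52 in lal-/- and 12.81 and 12.76 in lal+/+ cells (-0.30, adjusted p = 0.107). Rpl10, among the last of the large subunit proteins to join, read 12.32 and 12.31 in lal-/- and 12.40 and 12.39 in lal+/+ cells (-0.08, adjusted p = 0.649). Rpl24, Rpl27 and Rpl41 each had a log2 fold change of -0.01 with a standard error of 0.12, and turned positive with a common median (0.14, 0.15 and 0.13). Rpl34 read 7.90 and 8.34 in lal-/- and 7.80 and 8.02 in lal+/+ cells, where the genotypes overlapped (0.22, adjusted p = 0.411).

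In the small subunit the median log2 fold change was -0.21 (-0.04 with a common median). Of its 22 genes 7 fell (31.8%, beside 9.85% of all genes) and 1 rose (4.55%, beside 19.8%). Rps15a was the only one called lower, with 7.67 and 7.56 in lal-/- cells, against 8.54 and 8.81 in lal+/+ cells (-1.06, standard error 0.14, adjusted p = 0.0018, limma). It read -0.63 with a common median and -0.92 without lal+/+ replicate 2, and was not called in either. Rps2, at the entry of the mRNA channel, read 11.14 and 11.08 in lal-/- and 12.08 and 12.01 in lal+/+ cells (-0.93, adjusted p = 0.0015). Rps19 read 9.99 and 9.89 in lal-/- and 10.75 and 10.78 in lal+/+ cells (-0.83, adjusted p = 0.00254). Its value was -0.20 with a common median (adjusted p = 0.347) and -0.38 as deposited (adjusted p = 0.0641), and passed in neither. Rps20, Rps7, Rps28 and Rps4x also fell, by 0.42 to 0.60, and of these Rps20 alone passed with a common median, as did Rps2. The difference between the 2 subunits in these counts was not tested.

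Rps6, the substrate of the S6 kinases downstream of mTOR, averaged 12.95 ± 0.06 in lal-/- cells, against 13.28 ± 0.02 in lal+/+ cells (SD, n = 2 arrays each), and the genotypes did not overlap. Its log2 fold change of -0.33 did not pass the test (adjusted p = 0.0852, limma). Rpsa, also known as the laminin receptor precursor, read 11.80 and 11.78 in lal-/- and 12.16 and 12.09 in lal+/+ cells (-0.34, adjusted p = 0.0781). Rps3, which forms part of the mRNA entry and has a known role in DNA repair, read 11.65 and 11.54 in lal-/- and 11.55 and 11.69 in lal+/+ cells, so that the genotypes overlapped (-0.02, adjusted p = 0.917). Rps3 read 0.35 with a common median and 0.17 in the values as deposited. Rps14 read 13.19 and 13.24 in lal-/- and 13.18 and 13.16 in lal+/+ cells (0.05, adjusted p = 0.806). Rps9 read 13.46 and 13.40 in lal-/- and 13.03 and 13.19 in lal+/+ cells (0.32, adjusted p = 0.102).

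After quantile normalization Fau was the only core member that rose. With a common median 3 did, Fau, Rpl34 (0.65, adjusted p = 0.0204) and Rps9 (0.44, adjusted p = 0.0371). Fau encodes the small subunit protein S30 fused to a ubiquitin-like protein, which is cut off after translation. Fau read 12.42 and 12.38 in lal-/- cells, against 11.90 and 11.91 in lal+/+ cells, so that its log2 difference was 0.50 (standard error 0.12, adjusted p = 0.0194, limma). Its other probe set had 0.59. With a common median the log2 fold change was 0.72. When the quantile map was built without ribosomal protein probe sets it was 0.34 and did not pass (adjusted p = 0.0716), and it did not pass without either lal-/- array.

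The 7 paralogs had a median log2 fold change of 0.35, and 1 of them was called. Rpl7l1, a relative of Rpl7 known from precursors of the large subunit in human cells, read 8.82 and 8.85 in lal-/- cells, against 7.27 and 7.31 in lal+/+ cells. It rose by 1.54 on the log2 scale (standard error 0.12, adjusted p = 2.09e-04, limma), and Rpl7 itself read -0.16 (adjusted p = 0.379). Rpl10l, a retrogene known from the testis, read 5.97 and 5.15 in lal-/- and 4.84 and 4.77 in lal+/+ cells (0.76, adjusted p = 0.0642), with the lal-/- arrays further apart than those of any other member. Rpl10l, Rpl39l and Rps23rg1 lay in the range of silent genes in both genotypes, as did Rpl3l, a paralog of muscle, and Rps4l in lal+/+ cells. Rpl3l had 0.39, Rps4l 0.35 and Rpl39l 0.11, and none passed. Rps27l, a target of p53, read 9.01 and 9.37 in lal-/- and 9.61 and 9.39 in lal+/+ cells, and Rpl32l had -0.59 (adjusted p = 0.203 and 0.0657). Of the remaining genes Rps19bp1 had 0.28 and Rps23rg1 -0.28, and neither passed.

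Many members are read by several probe sets. Such sets can hold copies of the gene elsewhere in the genome or stretches shared with it, and they are not independent. Of 40 members with several probe sets, all were below 0 in 31, all above 0 in 6, and on both sides in 3. The median range of log2 fold change among the probe sets of a gene was 0.14. Rps12 had the most, with 14 between -0.27 and -0.14, and the 13 of Rpl23a lay between -0.22 and -0.13. All 4 of Rpl10a lay between -1.12 and -1.07 and were called lower, and the 8 of Rps6 lay between -0.36 and -0.27. Calls at a fold of 2 differed in 2 genes. Of the 9 probe sets of Rpl13, 1 was called at -1.08 and the others lay at -0.96 to -0.77, all at an adjusted p under 0.05. Rpl23 had 1 probe set at -1.06 that was called and the brighter one at -0.33 (adjusted p = 0.0825) that stands for the gene. In Rpsa the 5 ran from -0.78 to -0.19. In 10 genes some probe sets passed the test and others did not.

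**Figure D4:**
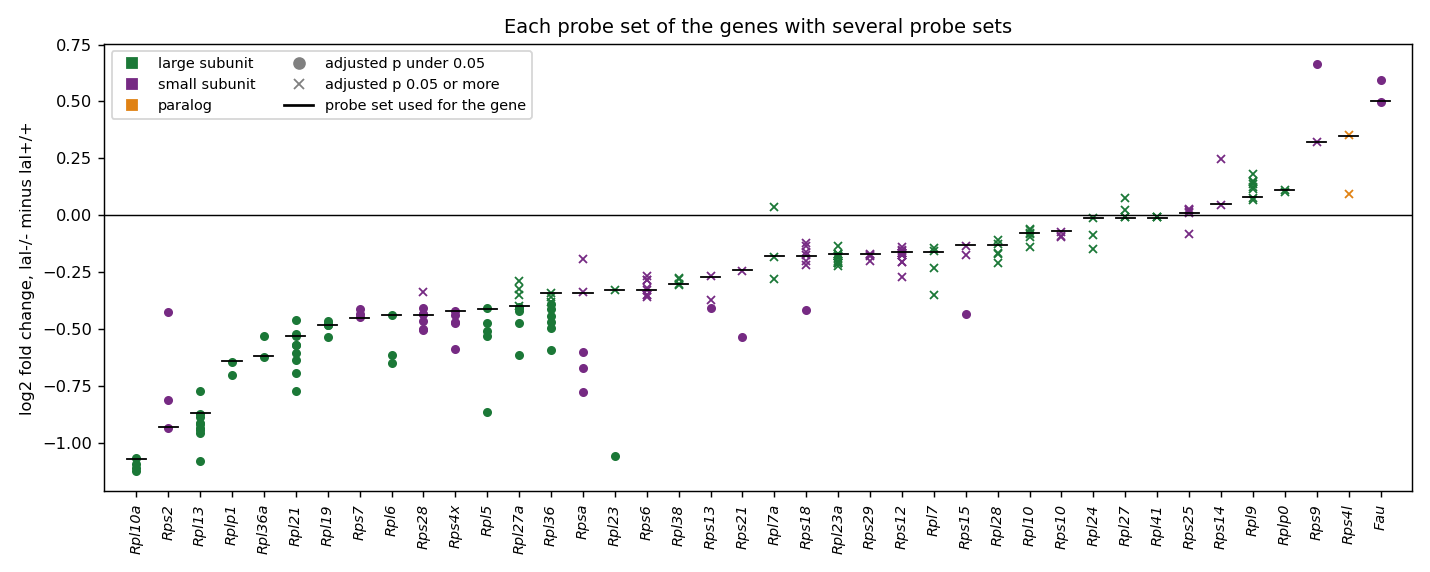
Log2 fold change, lal-/- minus lal+/+, of each probe set of the 40 members with several probe sets, in the order of the gene's value. Circles passed an adjusted p under 0.05 and crosses did not, and the black line marks the probe set used. The probe sets of Rpl10a cluster at -1.12 to -1.07, while those of Rpl23 lie at -1.06 and -0.33.

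Core members with a single probe set that names them alone had the larger decreases. Some of them, such as Rpl12, Rpl26, Rpl34 and Rps19, are also named by probe sets of several genes, which are not counted here. Of the 16 genes with 1 such set 12 fell and 7 were called lower, and their median was -0.90 (log2 fold change). Over all genes 9.85% fell and 3.24% were called lower. Of the 39 core genes with several probe sets that name them alone 12 fell and 1 was called lower, with a median of -0.24. The genes with 1 such set also read lower, with a median level of 9.64 and 9.57 in lal-/- cells, against 10.53 and 10.62 in lal+/+ cells. Those with several had 12.33 and 12.38 in lal-/- and 12.60 and 12.58 in lal+/+ cells. With a common median the 16 genes had a median of -0.37, with 7 that fell and 1 that rose. The 39 genes had one of -0.06, with 4 that fell and 2 that rose. The part of level and of copies in this difference was not tested.

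Ribosomal proteins were also read by 239 probe sets that name such a gene together with others, and cannot be assigned to 1 gene. Of these 222 lay below 0, with a median log2 fold change of -0.34 (-1.14 to 0.53), against a median of 0.03 over all probe sets. With p-values adjusted over all probe sets 91 fell (limma), and 11 of them were called. Under the same adjustment 1398 of 19938 genes, each read by 1 probe set, fell and 627 were called lower. The 239 are probe sets, several of which can name the same gene, so these counts differ in unit. The 239 were not counted with a common median. At least 20 of the 27 genes without a probe set of their own are named by sets of several genes. So are Rpl26, Rpl12, Rpl30, Rpl29 and Rps15a, which were called lower by the probe set that names each alone. None of the 239 lay below -1.14, so those naming Rpl26, Rpl12 or Rpl30 lay above the gene's own value.

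A second motif was shared by some of the promoters. CTCGCGA, the middle of a palindrome known from promoters without a TATA box, was searched on both strands of windows of 250 bases before to 50 after the start. It occurred in 14 of 51 windows of core members (27.5%), which belong to 13 genes, and in 1.93% of all 32851 RefSeq windows. The matches of the 4 such genes called lower, Rpl26, Rpl12, Rpl10a and Rps15a, and of Rps9, which had the highest log2 fold change of the 13, are shown with the bases around them so that they can be compared. Capitals mark the motif and its overlapping match on the other strand.
Rpl26: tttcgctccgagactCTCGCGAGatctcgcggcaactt
Rpl12: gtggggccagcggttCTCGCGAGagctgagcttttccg
Rpl10a: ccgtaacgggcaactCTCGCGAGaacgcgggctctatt
Rps15a: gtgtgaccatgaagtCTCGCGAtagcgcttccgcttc
Rps9: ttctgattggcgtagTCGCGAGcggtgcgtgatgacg
They lie at chr11:68901526-68901563 (Rpl26, plus strand), chr2:32961644-32961681 (Rpl12, plus strand), chr17:28328520-28328557 (Rpl10a, plus strand), chr7:118116191-118116227 (Rps15a, minus strand) and chr7:3703952-3703988 (Rps9, plus strand) of GRCm38.p6. The 13 genes had log2 fold changes of -1.55 to 0.32 with a median of -0.40, and 6 fell, beside 43.6% of all 55 core members. With a common median Rpl26, Rpl12, Rpl10a and Rps15a still fell and Rps19 and Rps28 did not pass. Rps9 rose there (0.44, adjusted p = 0.0371, limma). CTCGCGAG, the match on both strands, also stood in Rps19 (-0.83) and Rps28 (-0.44), which fell. It stood in Rpl27a (-0.40) and Rps6 (-0.33) as well, which did not pass. Rpl7a (-0.18), Rps15 (-0.13), Rps3a1 (-0.11) and Rpl37a (-0.04) had a match on 1 strand and did not pass. The 31 other core genes with a window had a median of -0.27, with 12 that fell, 2 of them called, and 1 that rose. They were not counted with a common median, and their difference from the 13 was not tested. A match is a description of the letters and no sign that a factor binds.

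The pyrimidine run of at least 8 bases was present in 27 of 51 core windows (52.9%) and in 26.8% of all windows. Core genes with a run had a median log2 fold change of -0.36 (26 genes) and those without one -0.20 (18 genes). CCGGAAG, the letters bound by Ets factors such as GABP, occurred on either strand in 35.3% of core windows and 8.86% of all windows, with medians of -0.33 in the 17 genes with it and -0.27 in the 27 without. CTTTCC, which can lie inside a pyrimidine run, occurred on either strand in 45.1% and 26.6%. The 21 core genes with it had a median of -0.40 and the 23 without it one of -0.18. All these medians are after quantile normalization, and the differences between them were not tested. The annotated starts are not exact to the base, so a missing run says only that these letters are not in the window.

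Genes that act with the ribosome were counted in the same fit. Over all genes 9.85% fell and 19.8% rose in it, and with a common median 1536 and 5333 of 19938 did. Of 16 measured genes whose mRNAs carry a TOP motif besides the ribosomal proteins, 7 fell at the adjusted p (limma), with a median log2 fold change of -0.25. Of these 16 genes 2 fell and 5 rose with a common median. Npm1, a nucleolar chaperone of ribosome assembly, read 9.76 and 10.13 in lal-/- and 11.22 and 11.17 in lal+/+ cells (-1.25), and the histone chaperone Nap1l1 had -1.13. Of 60 ribosome assembly factors 25 fell, 16 of them called, and 8 rose (median -0.33). Over the same 60 genes 20 fell and 13 rose with a common median (-0.07). Rrs1 read 6.53 and 7.03 in lal-/- and 9.03 and 9.16 in lal+/+ cells (-2.32), and the nucleolar GTPase Gnl3 read 7.04 and 7.11 in lal-/- and 9.55 and 9.18 in lal+/+ cells (-2.29). Wdr43 had -2.12 and Nop10, of the pseudouridine-forming particles, -1.71. Of 7 chaperones that escort single ribosomal proteins 4 fell and 1 rose (median -0.61), with Bccip, the carrier of Rpl23, at -1.20. Of these 7 genes 2 fell and 2 rose with a common median (-0.10). Of 12 subunits and factors of RNA polymerase I 3 fell and 3 rose, and their median was -0.16, which turned to 0.13 with a common median.

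Of 18 regulators of ribosomal protein synthesis 5 rose and 4 fell, beside 19.8% and 9.85% of all genes. Their median was 0.28, and with a common median 11 rose and 1 fell (0.67). Myc, a known activator of ribosomal protein genes, read 7.11 and 7.40 in lal-/- cells, against 9.30 and 9.12 in lal+/+ cells (-1.96, adjusted p = 2.07e-04, limma). Max, its partner, read 12.78 and 12.76 in lal-/- and 11.70 and 11.61 in lal+/+ cells (1.11, adjusted p = 7.46e-04), and Eif4ebp2, a repressor of cap-dependent translation, had 1.02 (adjusted p = 0.0153). Larp1 fell by 0.59 (adjusted p = 0.0126), and Mtor had 0.09 (adjusted p = 0.643). Of 5 measured genes of the path from ribosomal proteins to p53, Mdm2 and Sesn2 rose by 0.69 each and Mdm4 fell by 0.56, and with a common median 3 of the 5 rose and Mdm4 did not pass. The mitochondrial ribosomal proteins, which translate the mitochondrial genome, went the other way from the cytosolic ones. Of 77 measured 34 rose and 4 fell, and 12 were called higher, beside 7.56% of all genes. Their median was 0.38 (0.75 with a common median).

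**Figure D5:**
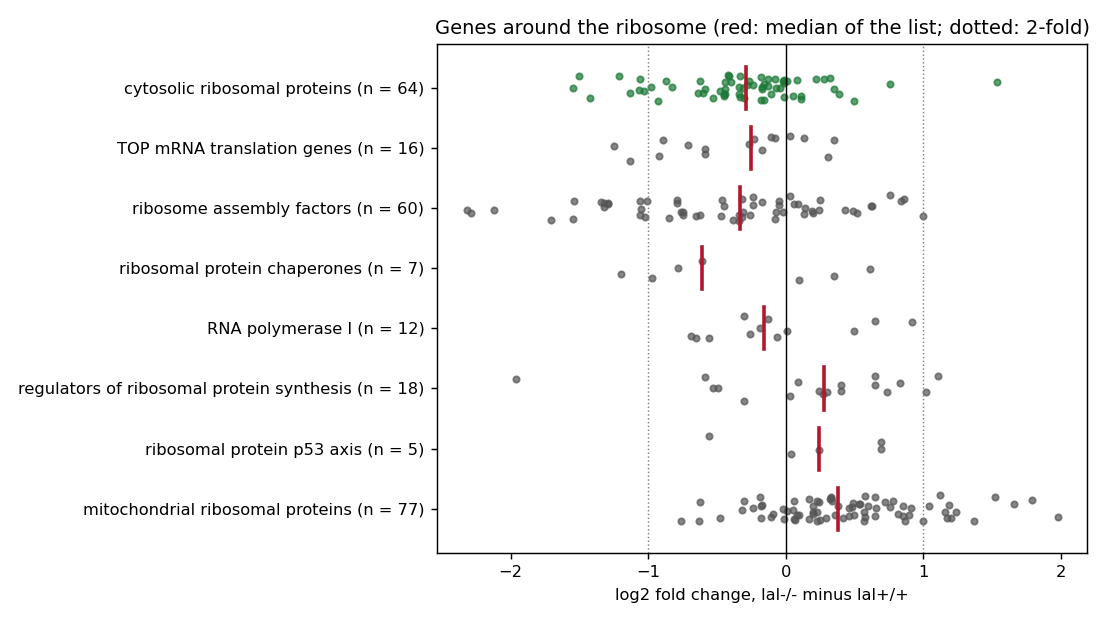
Log2 fold change, lal-/- minus lal+/+, of each gene of the cytosolic ribosomal proteins and 7 lists of genes around them, with the median of each list in red. The medians are -0.29 for the cytosolic ribosomal proteins, -0.33 for the assembly factors and 0.38 for the mitochondrial ribosomal proteins. They become -0.05, -0.07 and 0.75 with a common median.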

How the data were processed

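Labelled cDNA of Ly6G+ bone marrow cells was hybridized to 4 arrays, and the authors turned the scans into expression values with the RMA method of the Partek software. The deposited values are log2 levels of 35557 probe sets, and the labels also name GCOS 1.1. The gene table used here names 1 gene for 21789 probe sets and several for 1621. Column medians differed by 0.208, over a limit of 0.1, so the columns were quantile normalized. Genotype was fitted with limma 3.58.1 in R 4.3.3 (4.83 prior and 2 residual degrees of freedom), a procedure checked on simulated data. The tissue term of the methods' model could not be fitted to 1 tissue. The members and gene lists were chosen with earlier results of these data known. Named were all called members, the 8 at either end of the fold changes, the 5 at either end of the levels, the paralogs, a fixed group whatever its values (among them Rps3, Rps6 and Rpl5), and up to 4 called genes of a list in each direction. Others named, the motifs, and Rpl32l as a paralog were chosen after values or symbols were seen. Promoter sequences are from RefSeq. Same-numbered arrays were not paired in the fit (correlation of their deviations -0.175). With 2 arrays a genotype the deviations mirror each other, so this value can neither show nor exclude a pairing. Alternatives were other scalings, adjustments, variance models, probe set rules, a stricter threshold, a filter on dim probe sets, replicate blocks and leaving out each array.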

Additional observations from a re-analysis of the deposited data

How the results depend on the processing

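A common median gave 2 members called lower, 11 that fell and 6 that rose at the adjusted p, and medians of -0.05 over the members, -0.15 over the large and -0.04 over the small subunit. It turned 14 members positive, Rpl10 (0.06), Rpl24 (0.14), Rpl27 (0.15), Rpl28 (0.02), Rpl37a (0.12), Rpl41 (0.13), Rpl7 (0.09), Rpl7a (0.17), Rpl8 (0.07), Rps10 (0.22), Rps15 (0.05), Rps27l (0.31), Rps3 (0.35) and Rps3a1 (0.03). Over all genes 2619 were then called higher and 467 lower (84.9% higher), against 1508 and 646 (70.0%). The deposited values gave 3 called lower, medians of -0.23 and -0.33 (large subunit), 76.1% higher over all genes, and turned Rpl39l (-0.07), Rps10 (0.04), Rps25 (-0.03), Rps27l (0.14) and Rps3 (0.17). A quantile map without ribosomal protein probe sets, added after the data were seen, gave 1 that rose, medians of -0.45, -0.59 (large) and -0.41 (small), and turned Rpl9 (-0.16), Rplp0 (-0.12), Rps14 (-0.11) and Rps25 (-0.19). The mean of all probe sets of a gene gave medians of -0.32, -0.45 and -0.28 and turned Rpl27 (0.02) of the 47 members compared. An intensity trend with robust moderation gave 40 that fell and 4 that rose, and an adjusted p under 0.01 gave 15 and 1. The ordinary linear model without moderation called 0 higher and 0 lower, and 0 fell or rose, though 39 and 2 members had an unadjusted p under 0.05, against 31 and 6 with limma. With the replicate block 18 fell and 3 rose, and with the crossed block, added after the data were seen, 26 and 3.

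Leaving out each array in turn, with the lone array taken to vary like the other genotype, gave 12 to 22 members that fell, 1 to 2 that rose, 1 to 2 called higher, and medians of -0.32 to -0.24 (members) and -0.43 to -0.35 (large subunit). Among the 47 members compared, the log2 fold change over the 4 fits crossed 0 in Rpl24 (-0.04 to 0.02), Rpl27 (-0.02 to 0.01), Rpl34 (-0.003 to 0.43), Rpl41 (-0.06 to 0.05), Rps23rg1 (-0.66 to 0.11), Rps25 (-0.03 to 0.05) and Rps3 (-0.09 to 0.05), with values as small as 5e-05 (Rpl27) and 0.002 (Rpl24). No called member was among the reversed. Of 655 values of 47 members under 14 settings 596 kept direction and side of the threshold. A further 24 lost and 5 gained the call and 30 reversed, and the cause was not tested. Settings that changed only the adjustment, the variance model, the replicate block or the filter kept each log2 fold change, so no value could reverse there. The 47 leave out Rpl7, Rpl7a, Rpl8, Rps15 and Rps3a1, which turned positive with a common median. The 30 thus do not count every reversal among the members. With 2 arrays a genotype and signal near the silent level in Rpl12 and several paralogs, small differences are not resolved.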
